A study of Mus musculus with 6 samples.

Results

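The integrated stress response is the programme by which a cell answers amino acid shortage, unfolded protein or mitochondrial dysfunction. Kinases phosphorylate the translation factor eIF2, most translation slows, and the mRNA of the transcription factor *Atf4* is translated more, so that a change in *Atf4* activity need not appear in *Atf4* mRNA. *Atf4* then drives genes for amino acid synthesis and transport, further transcription factors and, in many tissues under mitochondrial stress, the secreted hormones *Fgf21* and *Gdf15*. The 10 genes described here were taken by symbol from the deposited expression table of 22611 genes. They are the factors *Atf4*, *Atf5* and *Ddit3*, the pseudokinase *Trib3*, the hormones *Fgf21* and *Gdf15*, the enzymes *Asns*, *Psat1* and *Phgdh* of asparagine and serine synthesis, and *Chac1*, which degrades glutathione.

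The libraries came from epithelial cells of the duodenum of 3 wild-type (WT) mice and 3 mice without the nuclear receptor ESRRA, labelled ESRRAKO and written *Esrra-/-* here. Per the study's methods the null allele was carried in the germline and so in every tissue, the controls were littermates, both genotypes ate a high-fat diet for approximately 8 weeks, and animals of both sexes were used. The age at collection is not given in the sources used here. Levels are FPKM, fragments scaled to transcript length and to the size of a library, so they can be compared between genes. Per the study's methods they were calculated with DESeq2, and the measure of library size is not given. A gene was tested when its mean over the 6 libraries was above 1 FPKM, which held for 10596 genes and for 7 of the 10. Fold changes compare *Esrra-/-* with WT as differences of log2(FPKM + 0.1), from a linear model per gene in limma, which borrows information on variance between genes. Genes beyond 0.58 in either direction whose unadjusted p was under 0.05 were called lower or higher.

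The labels held for the targeted gene. *Esrra* lay at 49.4, 73.5 and 103.6 FPKM in the WT libraries and at 10.4, 9.42 and 8.72 FPKM in the *Esrra-/-* libraries, a log2 fold change of -2.92 (limma adjusted p = 0.0215). The 8 epithelial markers were all expressed, with *Epcam* between 565.2 and 776.2 FPKM, while the 8 mesenchymal markers summed to at most 3.80 FPKM in any library and 6 of 10 pancreatic acinar markers were listed at 0 in every library. Immune markers summed to 17.1 to 28.4 FPKM in WT and 16.1 to 27.8 FPKM in *Esrra-/-*. The 8 crypt markers, genes of stem and dividing cells, summed to 206.4 to 330.6 FPKM in WT and 105.6 to 249.5 FPKM in *Esrra-/-*. All 8 had a negative log2 fold change. Of these 0 were called lower, where 3.28% of all genes tested were, and 2 had a limma unadjusted p under 0.05, where 10.8% did. The 8 villus markers summed to 24363.6 to 37998.6 FPKM in WT and 29904.6 to 40189.8 FPKM in *Esrra-/-*. Of their log2 fold changes 7 were positive and 1 negative, with 0 called and 0 with an unadjusted p under 0.05. The replicate 3 library of each genotype was listed at under 1 FPKM for the sum of 4 genes of chromosome Y, which reached 27.3 to 46.7 FPKM in the other 4 libraries. Fewer cells of a type and less RNA per cell cannot be told apart in these bulk samples.

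*Atf4* binds, together with C/EBP factors, a composite element that reads TGATGNAA on one strand. The element was looked for on both strands in the 13 RefSeq promoter windows of the 10 genes, each of 250 bases before and 50 bases after a transcription start, and each window was then placed on NCBIM37 (mm9), the build of the deposited data, by its only exact match there. Of these windows 4 held the element, 1 each for *Asns*, *Chac1*, *Trib3* and *Fgf21*, where 3.97% of all 32851 mouse windows in the same table did. The 4 stretches shown are those with a match, so that they share the element follows from how they were picked. Capitals mark the element, read 5′ to 3′ on the strand of the gene, so that TTGCATCA and TTACATCA are the element on the opposite strand.
Asns: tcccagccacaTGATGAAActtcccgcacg
Chac1: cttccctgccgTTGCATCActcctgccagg
Fgf21: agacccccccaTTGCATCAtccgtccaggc
Trib3: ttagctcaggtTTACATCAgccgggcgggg
The stretch of *Asns* lies at chr6:7643214-7643243 on the minus strand, that of *Chac1* at chr2:119176774-119176803 on the plus strand, that of *Fgf21* at chr7:52870981-52871010 on the minus strand and that of *Trib3* at chr2:152169764-152169793 on the minus strand. With the start base counted as 0, the elements begin at -23 in *Asns*, -193 in *Chac1*, -139 in *Fgf21* and 14 in *Trib3*, counted from the RefSeq start of each window. The other 9 windows, those of *Atf4*, *Atf5*, *Ddit3*, *Gdf15*, *Psat1* and *Phgdh*, held no such letters. Elements outside the windows were not looked for. AAGGTCA, the core of the ESRR motif, was in 0 of the 13 windows and in 4.72% of all windows. A match of letters does not show binding.

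The levels of the 10 genes spanned a wide range in WT epithelium. *Atf4* was the highest by far, at 122 ± 18.0 FPKM (SD, n = 3), and its mean over the 6 libraries was above that of 93.5% of the genes tested. Below it came *Ddit3*, *Asns*, *Trib3* and *Atf5*, between 18.6 and 9.17 FPKM on average, of which neighbours in this order overlapped in their libraries. *Phgdh* at 4.01 ± 1.22 FPKM and *Psat1* at 2.93 ± 0.868 FPKM lay below all of these and overlapped with each other. *Chac1* at 0.601 ± 0.0642 FPKM and *Gdf15* at 0.557 ± 0.343 FPKM were again separate from *Psat1* in every library. They overlapped with each other in WT and not in *Esrra-/-*, where *Chac1* was the higher one, and *Fgf21* was last.

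**Figure D1:**
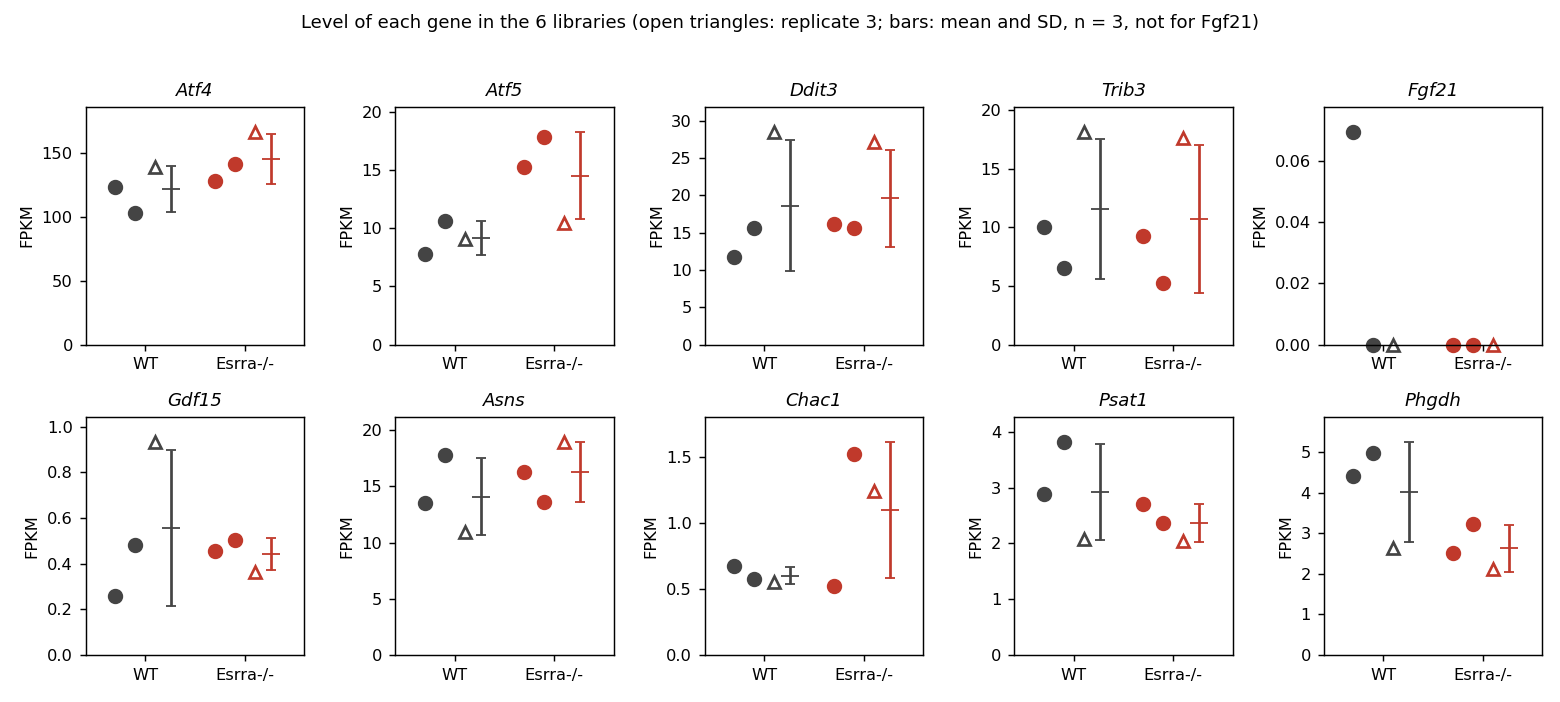
FPKM of the 10 genes in each library, with WT in grey and *Esrra-/-* in red, the replicate 3 libraries as open triangles, and bars for the mean and SD of 3 libraries in all panels but that of *Fgf21*. The values of the genotypes overlap in every panel, and *Ddit3* and *Trib3* are highest in both replicate 3 libraries.

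Between the genotypes, 1 of the 7 genes tested was called. *Atf5* was higher in *Esrra-/-*, and 0 of the 7 were called lower. Over all genes tested 1.35% were called higher and 3.28% lower. The genotypes overlapped for all 10 genes, where 17.6% of the genes tested did not overlap. The median log2 fold change of the 7 was 0.12, against 0.03 over all genes tested, with 4 positive and 3 negative values. Of the 7, 0 had a limma adjusted p under 0.05, where 0.0378% of all genes tested did, and 1 had an unadjusted p under 0.05, where 10.8% did.

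Among the transcription factors, *Atf5*, an *Atf4* target that takes part in the mitochondrial unfolded protein response, was the gene called. Its level was 7.77, 10.6 and 9.10 FPKM in the WT libraries and 15.3, 17.9 and 10.5 FPKM in the *Esrra-/-* libraries. *Esrra-/-* replicates 1 and 2 stood above every WT library, while *Esrra-/-* replicate 3 lay just under WT replicate 2. The mean of 14.5 ± 3.75 FPKM in *Esrra-/-* was 1.59 times the WT mean of 9.17 ± 1.43 FPKM (SD over 3 libraries). The log2 fold change of *Atf5* was 0.64 (95% confidence interval 0.12 to 1.15, standard error 0.22), with a limma unadjusted p of 0.0214 and an adjusted p of 0.388. The adjusted p of *Atf5* ran from 0.144 to 0.778 over the alternatives. The call was lost without WT replicate 1, without *Esrra-/-* replicate 1 and without *Esrra-/-* replicate 2, where the log2 fold change was 0.52, 0.58 and 0.47 and the limma unadjusted p 0.0750, 0.0635 and 0.0689. With both replicate 3 libraries left out it was 0.85. *Atf5* is on chromosome 7 of NCBIM37 from 52067627 to 52072028 on the minus strand.

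*Atf4*, on chromosome 15 from 80085614 to 80087970, was listed at 123, 103 and 139 FPKM in WT and at 128, 142 and 167 FPKM in *Esrra-/-*. The highest library was an *Esrra-/-* one and the lowest a WT one, with the others interleaved. The mean of *Atf4* was 1.19 times as high in *Esrra-/-*, and its log2 fold change of 0.26 had an interval from -0.15 to 0.67 (limma unadjusted p = 0.183). That interval held both 0 and the limit for a call. By the root-mean-square difference of mean-centred log2 values over the 6 libraries, the genes most like *Atf4* were *Dapk3*, *Lrrc8a*, *Igsf5*, *Nr2c1* and *Ovol1*, at 0.0449 to 0.0576 where the median gene stood at 0.292.

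*Ddit3*, also named *Chop*, encodes a factor that is linked to cell death under lasting stress, and *Trib3* encodes a pseudokinase that is induced by *Atf4* and *Ddit3* and restrains them. *Ddit3* was at 11.8, 15.6 and 28.5 FPKM in WT and at 16.1, 15.6 and 27.1 FPKM in *Esrra-/-*. *Trib3* was at 10.0, 6.49 and 18.1 FPKM in WT and at 9.21, 5.26 and 17.6 FPKM in *Esrra-/-*. In each genotype the replicate 3 library was the high one for both genes, and the genotypes overlapped. The log2 fold change between genotypes was 0.12 for *Ddit3* (interval -0.70 to 0.95) and -0.15 for *Trib3* (interval -1.31 to 1.01), which is smaller than the spread between mice of a genotype. With the replicate 3 libraries left out it was 0.22 for *Ddit3* and -0.21 for *Trib3*. *Ddit3* lies on chromosome 10 from 126727830 to 126733344 and *Trib3* on chromosome 2 from 152163158 to 152169768.

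**Figure D2:**
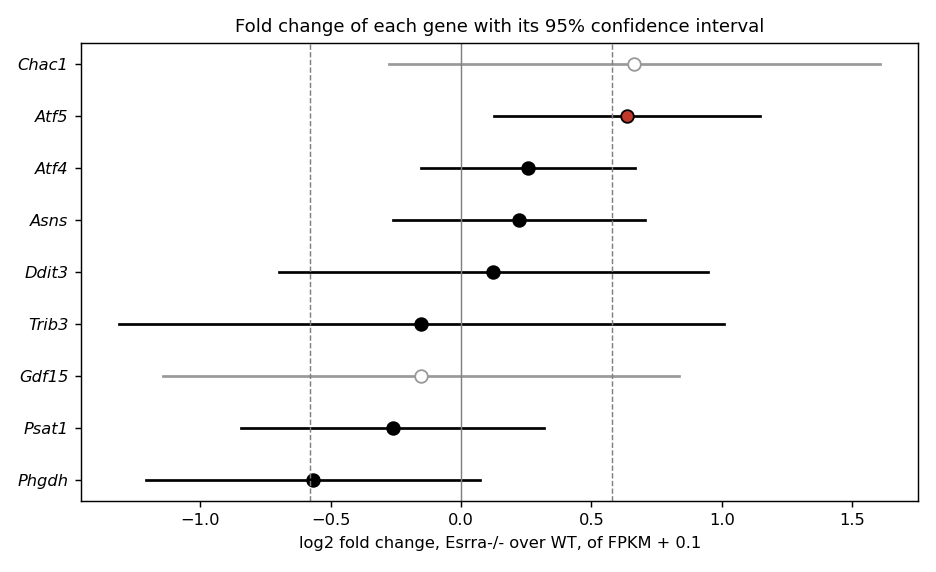
Log2 fold change, *Esrra-/-* over WT on log2(FPKM + 0.1), with its 95% confidence interval for 9 genes; filled points were tested, open grey points come from the fit without a filter on low values, red marks the called gene and dashed lines the 0.58 limit. The intervals of all genes but *Atf5* include 0, and that of *Trib3* is the widest of the tested genes, from -1.31 to 1.01.

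The replicate 3 libraries are those without Y-linked transcripts. They lay at 27.1 to 28.5 FPKM for *Ddit3*, where the other 4 libraries lay at 11.8 to 16.1 FPKM. For *Trib3* the ranges were 17.6 to 18.1 FPKM and 5.26 to 10.0 FPKM. With genotype in the model, the difference of these 2 libraries from the other 4 was 0.92 on the log2 scale for *Ddit3* and 1.24 for *Trib3*, and 0.79 and 1.21 with quantile normalization. By the limits of a call, 564 of all 10596 genes tested were higher and 496 lower in these 2 libraries. Of the 7 genes tested here, *Ddit3* and *Trib3* were higher and *Phgdh*, at -0.61, was lower. With quantile normalization *Phgdh* was at -0.46, inside the limit. Of the 84 pathway genes 2 were higher and 5 lower. The split was noticed in *Ddit3* and *Trib3*, so the values are a description and carry no test. In each genotype the replicate 3 library was also the lowest for the summed crypt markers, at 206.4 FPKM in WT and 105.6 FPKM in *Esrra-/-*. It was the highest for the summed villus markers, at 37998.6 and 40189.8 FPKM, for the summed epithelial markers, at 41474.2 and 40755.6 FPKM, and for the sum of all FPKM, at 999902 and 901171. Not every marker followed its sum. In WT, replicate 3 was the highest for the crypt markers *Pcna* and *Ascl2*, and replicate 1 for the villus markers *Sis* and *Ada*. For the epithelial marker *Cdh1* replicate 3 was the lowest of each genotype. The part of these sums in the levels of *Ddit3* and *Trib3* was not tested. Sex, and anything else that the replicate 3 libraries share, cannot be told apart here.

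**Figure D3:**
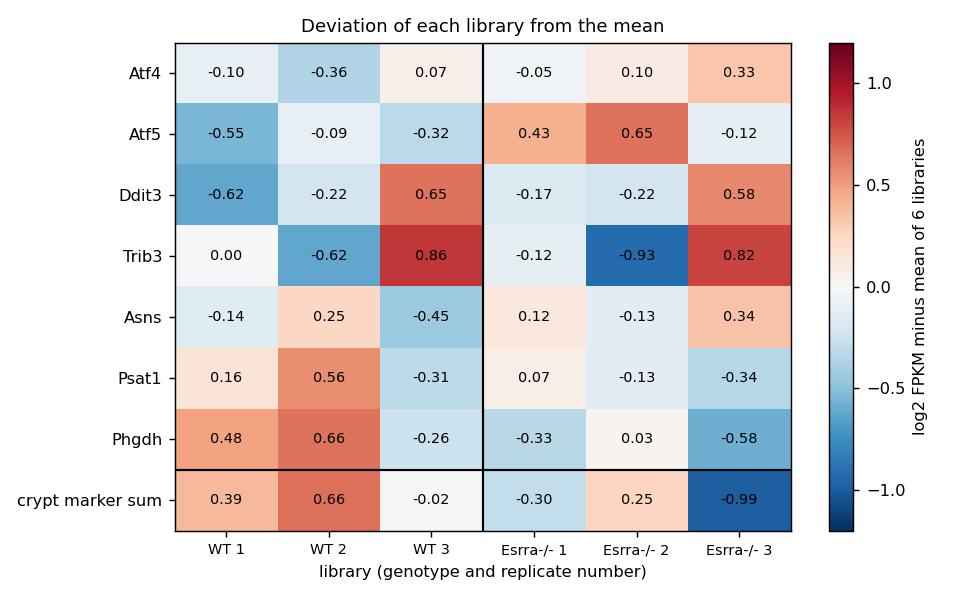
Log2 FPKM of 7 genes and of the summed crypt markers in each library minus the mean of the 6 libraries, in red above and in blue below the mean. *Ddit3* and *Trib3* are above their mean in both replicate 3 libraries, by 0.58 to 0.86. *Phgdh* has the library order of the summed crypt markers, from WT replicate 2 as the highest to *Esrra-/-* replicate 3 as the lowest. *Olfm4* is on average the largest part of that sum, and the other genes shown have other orders.

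The enzymes of amino acid synthesis held 0 calls. *Asns*, which makes asparagine, was at 13.5, 17.8 and 10.95 FPKM in WT and at 16.2, 13.6 and 18.9 FPKM in *Esrra-/-*, with the genotypes interleaved. Its log2 fold change was 0.22 (interval -0.26 to 0.71, limma unadjusted p = 0.315). Without the 2 replicate 3 libraries, which were the lowest of WT and the highest of *Esrra-/-*, the difference was -0.06. The genes with the profile most like that of *Asns* were *Usp32*, *Pot1a*, *Ctsc*, *Bcl2l15* and *Irs2*, at a root-mean-square difference of 0.0614 to 0.0846.

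*Phgdh* catalyses the first step of serine synthesis from a glycolytic intermediate. It was at 4.42, 4.98 and 2.64 FPKM in WT and at 2.52, 3.23 and 2.11 FPKM in *Esrra-/-*. WT replicates 1 and 2 stood above every *Esrra-/-* library, and WT replicate 3 fell among them. The *Esrra-/-* mean was 65.3% of the WT mean and the log2 fold change of *Phgdh* was -0.57 (interval -1.21 to 0.07), just short of the limit for a call, with a limma unadjusted p of 0.0747 and an adjusted p of 0.509. Without WT replicate 3 it was -0.84 and without *Esrra-/-* replicate 2 it was -0.72, and both fits called it lower. These were 2 of the 6 fits with a library left out, and the others did not call it. Their value nearest to no difference was -0.39, without WT replicate 2. With both replicate 3 libraries left out *Phgdh* was at -0.70 and called as well. The sum of the crypt markers put the 6 libraries in the same order as *Phgdh* did, from WT replicate 2 at 330.6 FPKM to *Esrra-/-* replicate 3 at 105.6 FPKM. *Olfm4*, on average the largest part of that sum, was at 204.6 and 36.1 FPKM in these libraries. *Pcna* and *Ascl2* were instead highest in WT replicate 3. Of the other serine and one-carbon enzymes compared with the sum, *Shmt1* shared its order, and *Psat1*, *Shmt2*, *Mthfd1* and *Mthfd2* did not. The part of the crypt markers in the difference was not tested.

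*Psat1*, the aminotransferase of the next step, was at 2.88, 3.82 and 2.08 FPKM in WT and at 2.71, 2.36 and 2.04 FPKM in *Esrra-/-*. The replicate 3 library was the lowest of both genotypes. The log2 fold change of *Psat1* was -0.26 (interval -0.84 to 0.32, limma unadjusted p = 0.323). *Psat1* lies on chromosome 19 from 15979168 to 16021827, the chromosome that carries *Esrra* from 6985467 to 6996303, while *Phgdh* is on chromosome 3 and *Asns* on chromosome 6.

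The hormones had means under 1 FPKM and so were not tested. *Fgf21*, known mainly as a hormone of the fasted liver, was listed at 0 in 5 libraries and at 0.0694 FPKM in WT replicate 1. *Gdf15* was at 0.259, 0.481 and 0.931 FPKM in WT and at 0.455, 0.505 and 0.365 FPKM in *Esrra-/-*, so that all 3 *Esrra-/-* libraries fell within the range of the WT ones. In the fit without a filter the log2 fold change of *Gdf15* was -0.15 (interval -1.14 to 0.84). *Chac1* was at 0.674, 0.576 and 0.553 FPKM in WT and at 0.524, 1.52 and 1.24 FPKM in *Esrra-/-*. *Esrra-/-* replicates 2 and 3 were above all WT libraries, and *Esrra-/-* replicate 1 was below them. The fit without a filter gave *Chac1* a log2 fold change of 0.67 (interval -0.28 to 1.61, limma unadjusted p = 0.139). Both intervals reach past the limit for a call, and the depth of the libraries is not known from FPKM.

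The other genes of the pathway were read from 7 lists with 94 genes in all, of which 84 were tested. Of these, 2 were called lower and 0 higher, near the 3.28% and 1.35% of all genes tested. The median log2 fold change of the 84 was 0.01. The groups did not overlap for 20 of the 84, against 17.6% of all genes tested. None of the 84 had a limma adjusted p under 0.05, and 13 had an unadjusted p under 0.05, 10 with a lower and 3 with a higher mean level in *Esrra-/-*. Of all 10596 genes tested, 10.8% had an unadjusted p under 0.05, 688 with a lower and 456 with a higher level.

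Among 15 tested genes of the kinases, of eIF2 and eIF2B subunits and of the phosphatase partners, 0 were called and the median was 0.08. *Eif2ak3*, the kinase known as *Perk*, was at 7.39, 7.36 and 6.85 FPKM in WT and at 10.7, 9.30 and 8.84 FPKM in *Esrra-/-*, with all *Esrra-/-* libraries above all WT libraries. Its log2 fold change of 0.41 (interval 0.12 to 0.69, limma unadjusted p = 0.0116) was under the limit for a call. *Eif2b3*, a subunit of the exchange factor that reloads eIF2, was at 2.89, 2.64 and 3.41 FPKM in WT and at 2.14, 2.30 and 1.79 FPKM in *Esrra-/-*, again without overlap and at -0.50 on the log2 scale. *Eif2b1*, of the same complex, was at -0.24. Of the 15 genes 5 did not overlap between genotypes, against 17.6% of all genes tested. The relay from mitochondria to eIF2, which runs through the protease *Oma1* and *Dele1*, showed log2 fold changes of 0.09 for *Oma1* and -0.18 for *0610009O20Rik*, the symbol under which *Dele1* is listed.

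The 11 tested enzymes of serine, proline and one-carbon metabolism had a median log2 fold change of -0.36, with 8 negative and 3 positive values, and 0 were called. *Shmt2*, which makes glycine from serine in mitochondria, was at 14.0, 21.0 and 13.9 FPKM in WT and at 13.5, 11.2 and 8.22 FPKM in *Esrra-/-*, a log2 fold change of -0.57 just inside the limit. *Shmt2* was called lower at -0.74 without *Esrra-/-* replicate 1, and at -0.67 without WT replicate 1 or without WT replicate 3. It was also called at -0.59 with quantile normalization. Those were its 4 calls in 15 alternative fits, over which *Shmt2* ran from -0.74 to -0.38. *Mthfd2*, the mitochondrial folate enzyme that follows it, was at 4.63, 5.08 and 4.52 FPKM against 3.58, 3.81 and 3.67 FPKM, and at -0.36. For *Shmt2* and *Mthfd2* all *Esrra-/-* libraries lay below all WT libraries. Of the 11 genes 3 did not overlap between genotypes, against 17.6% of all genes tested. *Aldh1l1*, a cytosolic folate enzyme, was at -0.50 with overlap. It was called lower at -0.69 without *Esrra-/-* replicate 3, at -0.60 without WT replicate 3 and at -0.79 without both replicate 3 libraries. None of the other alternative fits called *Aldh1l1*, and its values ran up to -0.40. The crypt markers, with a median log2 fold change of -0.59, lay lower in *Esrra-/-* beside this list, and their part in it was not tested.

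**Figure D4:**
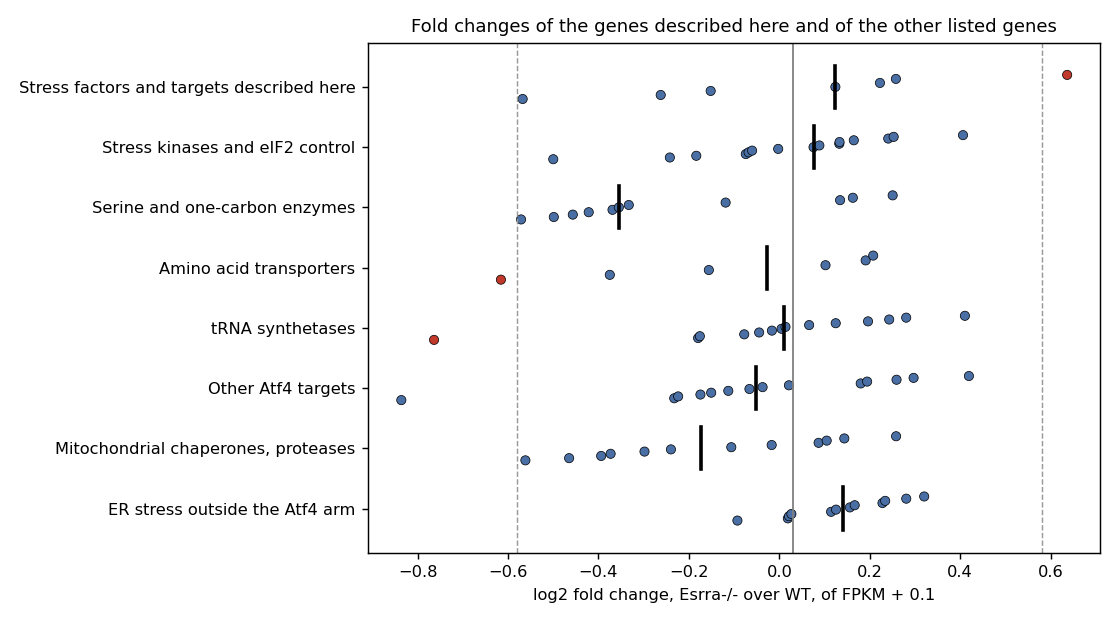
Log2 fold change, *Esrra-/-* over WT, of the genes described here and of the genes of 7 pathway lists that were tested, 1 point per gene; black bars are list medians, the grey line is the median of all genes tested at 0.03, dashed lines mark 0.58 and red points are called. The serine and one-carbon list lies lowest with a median of -0.36, and 11 of 12 endoplasmic reticulum stress genes lie right of 0.

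Of 6 tested amino acid transporters *Slc1a5*, a carrier of glutamine, was called lower. It was at 15.5, 15.5 and 9.47 FPKM in WT and at 9.55, 10.2 and 6.42 FPKM in *Esrra-/-*, so that WT replicate 3 lay among the *Esrra-/-* libraries. The log2 fold change of *Slc1a5* was -0.62 (limma adjusted p = 0.444) and ran from -0.85 to -0.41 when single libraries were dropped. The call was lost without *Esrra-/-* replicate 1 or 3 and without WT replicate 1 or 2, as well as with a pseudocount of 1, at -0.57, and without a trend. *Slc38a2* was at 0.21 and *Slc7a5* at -0.37, with overlap for both. *Slc7a5* was called lower at -0.64 without WT replicate 3, its 1 call in 15 alternative fits, which ran up to -0.22.

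Of 14 tRNA synthetases and export factors that are known targets of *Atf4*, *Vars*, the valine enzyme, was called lower. It was at 16.1, 19.1 and 8.85 FPKM in WT and at 6.64, 9.33 and 8.86 FPKM in *Esrra-/-*, with WT replicate 3 again among the *Esrra-/-* libraries. The log2 fold change of *Vars* was -0.76 (limma adjusted p = 0.417). Its call was lost without *Esrra-/-* replicate 1, at -0.61, without WT replicate 1, at -0.66, and without WT replicate 2, at -0.54. *Cars*, the cysteine enzyme, was at 6.54, 9.14 and 6.77 FPKM against 9.31, 9.85 and 10.5 FPKM, without overlap, and its log2 fold change was 0.41. *Sars*, the serine enzyme, was at 0.24. The median of the list was 0.01, and 4 of the 14 genes did not overlap between genotypes, against 17.6% of all genes tested.

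The 14 other tested targets and partners of *Atf4* held 0 calls, with a median of -0.05. The 3 with the smallest p were *Nupr1* at -0.84, *Bbc3* at 0.42 and *Ddit4* at -0.23, and the genotypes overlapped for each. *Nupr1* was called lower at -1.22 without *Esrra-/-* replicate 2 and at -0.84 with the replicate number as a block (limma unadjusted p = 0.0136). *Bbc3* was called higher at 0.69 without WT replicate 2. In 15 alternative fits *Nupr1* ran from -1.22 to -0.38 with 2 calls, and *Bbc3* from 0.20 to 0.69 with 1 call.

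The mitochondrial unfolded protein response is read from chaperones and proteases of the matrix and inner membrane. Among its 12 listed genes, all tested, 0 were called, the median was -0.17 and 8 were negative. *Hspe1*, the small matrix chaperonin, was at 95.2, 108 and 105 FPKM in WT and at 68.1, 79.1 and 62.2 FPKM in *Esrra-/-*. Its log2 fold change was -0.56 (interval -0.90 to -0.22, limma unadjusted p = 0.00569, adjusted p = 0.297). *Hspa9*, the matrix Hsp70 that drives protein import, was at 90.3, 92.6 and 81.9 FPKM against 63.8, 66.5 and 61.3 FPKM, and at -0.46. *Afg3l2*, a protease of the inner membrane, was at 41.7, 38.5 and 40.0 FPKM against 30.8, 29.0 and 31.6 FPKM, and at -0.39. For these 3 genes, which had the smallest p of the list, the genotypes did not overlap, and each stayed inside the limit for a call. The genotypes did not overlap for 5 of the 12, against 17.6% of all genes tested. The others of the 5 were *Dnaja3* at -0.24 and *Yme1l1*, higher in *Esrra-/-*, at 0.26. *Hspe1* was called lower at -0.66 without *Esrra-/-* replicate 2 and at -0.62 without WT replicate 1, and at -0.61 with quantile normalization. These were 3 of 15 alternative fits, and the values of *Hspe1* ran up to -0.47.

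Of the 12 endoplasmic reticulum stress genes outside the *Atf4* arm, all tested, 11 had a positive log2 fold change and 0 were called, with a median of 0.14. The range was from -0.09 to 0.32. *Edem1*, which helps clear misfolded protein, was at 20.7, 18.04 and 20.05 FPKM in WT and at 25.5, 21.8 and 26.3 FPKM in *Esrra-/-*, a log2 fold change of 0.32 (limma unadjusted p = 0.0406). *Xbp1* and *Atf6*, which encode factors of the other arms, were both at 0.23. These 3 genes had the smallest p of the list and were its only ones without overlap, 3 of 12, against 17.6% of all genes tested.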

How the data were processed

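RNA-seq libraries of the duodenal epithelium, 3 per genotype, were compared. The submitters' processing notes name FastQC 0.11.3, kallisto 2.1.0, DESeq2 2.2.1 and mm9. The authors deposited FPKM values for 22611 genes, and the annotation used for quantification is not given in the sources used here. A second deposited table holds the authors' own fold changes and p-values and was not used. Here log2(FPKM + 0.1) of genes with a mean above 1 FPKM was tested with limma 3.58.1 in R 4.3.3 (lmFit, eBayes with a mean-variance trend, Benjamini-Hochberg adjustment over all 10596 genes tested), with the thresholds of the study. Fold changes on this scale understate those of low genes. The fit was tested on simulated data with 200 changed genes. The simulated libraries varied independently, unlike the real ones, so the rate of calls in these data was not checked by it. No count test was run on FPKM. Libraries of a genotype correlated at 0.954 to 0.971, lowest for *Esrra-/-* replicates 2 and 3. The p-values set the difference between genotypes against the spread between these libraries. The variance of each gene is drawn toward that of genes of like level. The study's methods state a read number for the sequencing, but the depth of each library cannot be read from FPKM. The precision given here therefore rests on the spread between libraries.

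The genes described and the lists were chosen with earlier results of these data known. Named genes were the 10, *Esrra*, in each pathway list the called genes and the 3 with the smallest p, and the 5 profiles nearest to *Atf4* and to *Asns*. *Oma1*, *0610009O20Rik*, *Dnaja3*, *Yme1l1*, *Shmt1*, *Mthfd1* and the single markers of cell types were named after their values were seen. Gene positions are from GENCODE M1 and promoters from RefSeq (GRCm38.p6), matched to NCBIM37. Alternatives were a pseudocount of 1, no filter, a filter requiring more than 1 FPKM in each library, scaling by quantiles or by median ratios, no trend, the replicate number as a block, the absence of Y-linked transcripts (sum under 1 FPKM) as a covariate or as a reason to leave libraries out, each library left out in turn, and other thresholds.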

Additional observations from a re-analysis of the deposited data

How the results depend on the processing

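Over all genes, 348 were called lower and 143 higher. Without a filter these counts were 528 and 277, with an adjusted p under 0.05 they were 2 and 2, without a fold limit 688 and 456, and 252 to 533 and 143 to 214 on leaving out single libraries. Of the 10 genes, 1 was called higher and 0 lower. With an adjusted p the first count became 0, without the libraries that lack Y-linked transcripts the second became 1 (*Phgdh*), and both ran from 0 to 1 with each library left out. Of the pathway genes 2 were called lower and 0 higher. The lower count was 1 without a trend, 1 with a pseudocount of 1, 4 with quantile normalization, 0 with an adjusted p and 10 without a fold limit, and ran from 0 to 6 with each library left out. The higher count was 3 without a fold limit and ran from 0 to 1. The direction turned for *Ddit3* (-0.15 to 0.48) and *Trib3* (-0.59 to 0.27) with each library left out, and for *Asns*, at -0.058, without the libraries that lack Y-linked transcripts. The log2 fold change of *Esrra* ran from -3.19 to -2.60 over the alternatives and kept its call.

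Same-numbered libraries did not pair throughout: their deviations from the genotype mean correlated at 0.0116, 0.263 and 0.376 across genes. With the replicate number as a block, 441 genes were called lower and 192 higher, the pathway genes called lower were 3, *Nupr1* among them at -0.84, *Atf5* kept its call at an unadjusted limma p of 0.0124, and *Phgdh* stayed at -0.57 with 0.0121. *Fgf21*, *Gdf15* and *Chac1* had means under the filter, and the depth behind their values is not known, which limits what can be read for them.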
